A study of Homo sapiens with 4 samples.

Results

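The data described here are 45 human genes of the ATF4 pathway, amino acid supply and tRNA charging, measured in H1299 cells. H1299 is an established non-small-cell lung carcinoma line, labelled as lacking p53 of its own (p53-/-). Poly(A) RNA was sequenced from 4 libraries: 2 from cells expressing wild-type p53 (p53WT) and 2 from cells expressing CASM34, a p53 mutant from a study of synonymous mutations found in cancer. A synonymous mutation alters a codon without altering the amino acid it encodes. The cells of all 4 libraries were grown in medium with 10% serum and 2 mM glutamine, and the labels state no treatment or stress. Cells lacking any p53 were not analysed here, and p53WT serves as the reference. The labels do not say how p53 was delivered or whether the cells were 1 clone. The members were found by symbol through their gene IDs, and 45 of the 61852 gene models in the files belong to the set. The labels do not state whether the 2 libraries of a group are separate cultures. The p-values therefore reflect the spread among these libraries alone, and that spread may be technical.

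ATF4 is a transcription factor whose synthesis is controlled mainly at translation. Kinases that sense amino acid shortage, lack of heme, double-stranded RNA or endoplasmic reticulum stress phosphorylate the initiation factor eIF2 on its alpha subunit. Most translation then slows, while the ATF4 coding sequence is reached by more ribosomes. ATF4 pairs with C/EBP proteins and other bZIP factors and activates genes for amino acid synthesis, amino acid uptake and the charging of tRNAs by aminoacyl-tRNA synthetases. An mRNA measurement does not read the translation of ATF4 itself.

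The estimated counts totalled 18086983 to 26906095 per library. The epithelial keratin transcripts KRT8 and KRT18 were abundant, at 501 to 556 and 1011 to 1035 counts per 1e6 counts of the library (CPM), as was the mesenchymal filament VIM, at 4239 to 4484 CPM. The epithelial markers EPCAM, CDH1 and KRT19 stayed at or under 0.493 CPM. Among markers of other cells, 6 leukocyte or erythroid genes reached at most 0.374 CPM, with PTPRC, CD3E and HBB at 0 counts in every library. Of 6 fibroblast and endothelial genes, COL1A1 was highest, at 2.79 CPM.

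Most of the 45 genes differed little between CASM34 and p53WT cells. Of the 44 genes with enough counts to test, CEBPB rose, the asparagine synthetase gene ASNS fell and 42 did not pass. Passing means an adjusted p under 0.05 in edgeR's quasi-likelihood test with Benjamini-Hochberg adjustment over all 15965 genes tested. By that rule 1.95% of all genes tested passed, with 1.61% higher and 0.345% lower, which for 44 genes differs from the members' count by about 1 gene. With an offset for effective length or with limma on log2 TPM no member passed, and 5 and 0 of all genes did. Unadjusted p was under 0.05 for 7 of 44 members with the offset, beside 1882 of 15965 genes. With limma on log2(TPM + 1) it was under 0.05 for 8 of 44 members, beside 1820 of 15965 genes. The members' log2 fold changes, CASM34 over p53WT, ran from -0.35 to 0.31. Their median was -0.06, beside -0.00055 for all genes tested. The fitted value lay below 0 for 32 members and above 0 for 12, and 49.8% of all genes tested were above 0. At an unadjusted p under 0.05 there were 6 members, beside 17.1% of all genes tested. CPM of the groups did not overlap in 23 members, 21 of them lower in CASM34, where 47.9% of all genes did not overlap and 23.4% did so with CASM34 lower. In bulk RNA, fewer cells that express a gene and less RNA per cell cannot be told apart.

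The intervals around these fold changes were narrow. The 95% interval lay within 1.2-fold in either direction for 34 of the 44 members, and within 1.5-fold for 42. The same held for 40.5% and 71.5% of all genes tested. The tested members were also more abundant, with a median level of 72.4 TPM beside 10.8 TPM for all genes tested. Their median SE was 0.049, beside 0.091. CTH and SLC6A9, both with few counts, were the 2 members whose interval reached past 1.5-fold.

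**Figure D1:**
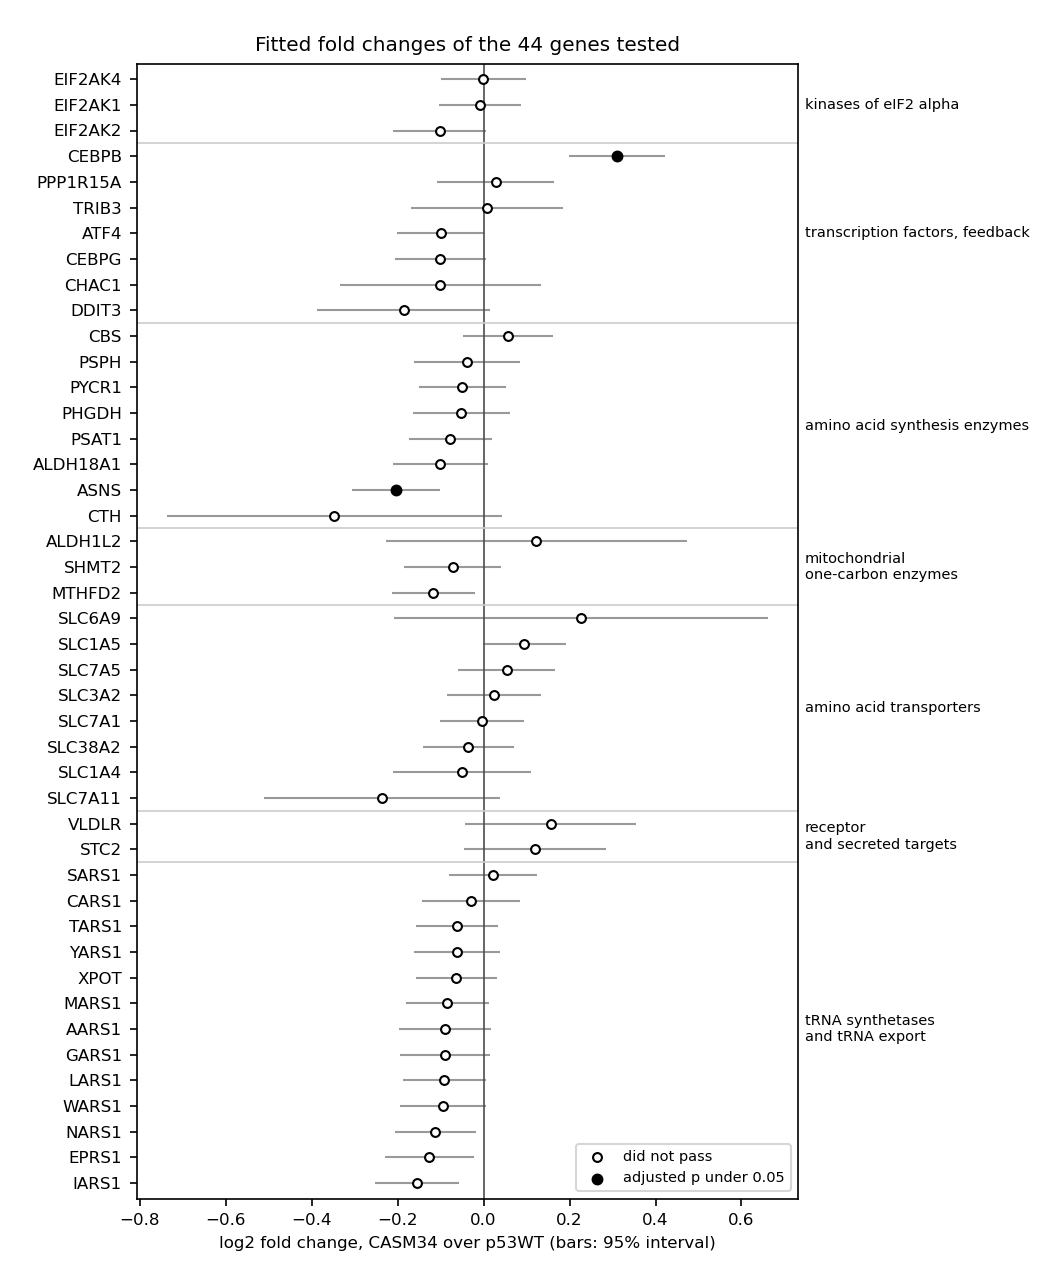
Fitted log2 fold change, CASM34 over p53WT (horizontal axis), of the 44 genes tested, grouped by role (vertical axis), with bars for the 95% interval. Filled points mark CEBPB and ASNS, which passed at an adjusted p under 0.05, and 11 of the 12 synthetases lie left of 0.

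Levels were compared between genes as TPM values, which divide counts by length. ATF4 had the highest mean of the set, 223 TPM, above 95.9% of genes tested. Its lowest library did not overlap with the highest library of the next gene, the methionyl-tRNA synthetase gene MARS1 at 175 TPM. MARS1, the mitochondrial folate enzyme gene MTHFD2 and the paired transporter genes SLC3A2 and SLC7A5 followed, and neighbours among these 4 overlapped. Of the 12 synthetases, 10 had means between 108 and 175 TPM, with EPRS1 at 59.0 and CARS1 at 36.2 TPM below them. At the low end stood CTH, ALDH1L2, SLC6A9 and the cystine transporter gene SLC7A11, at 2.94, 2.38, 1.72 and 1.33 TPM. NUPR1, a stress-induced chromatin cofactor, was too low to test, with 1 and 1 counts in p53WT and 11 and 2 in CASM34.

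**Figure D2:**
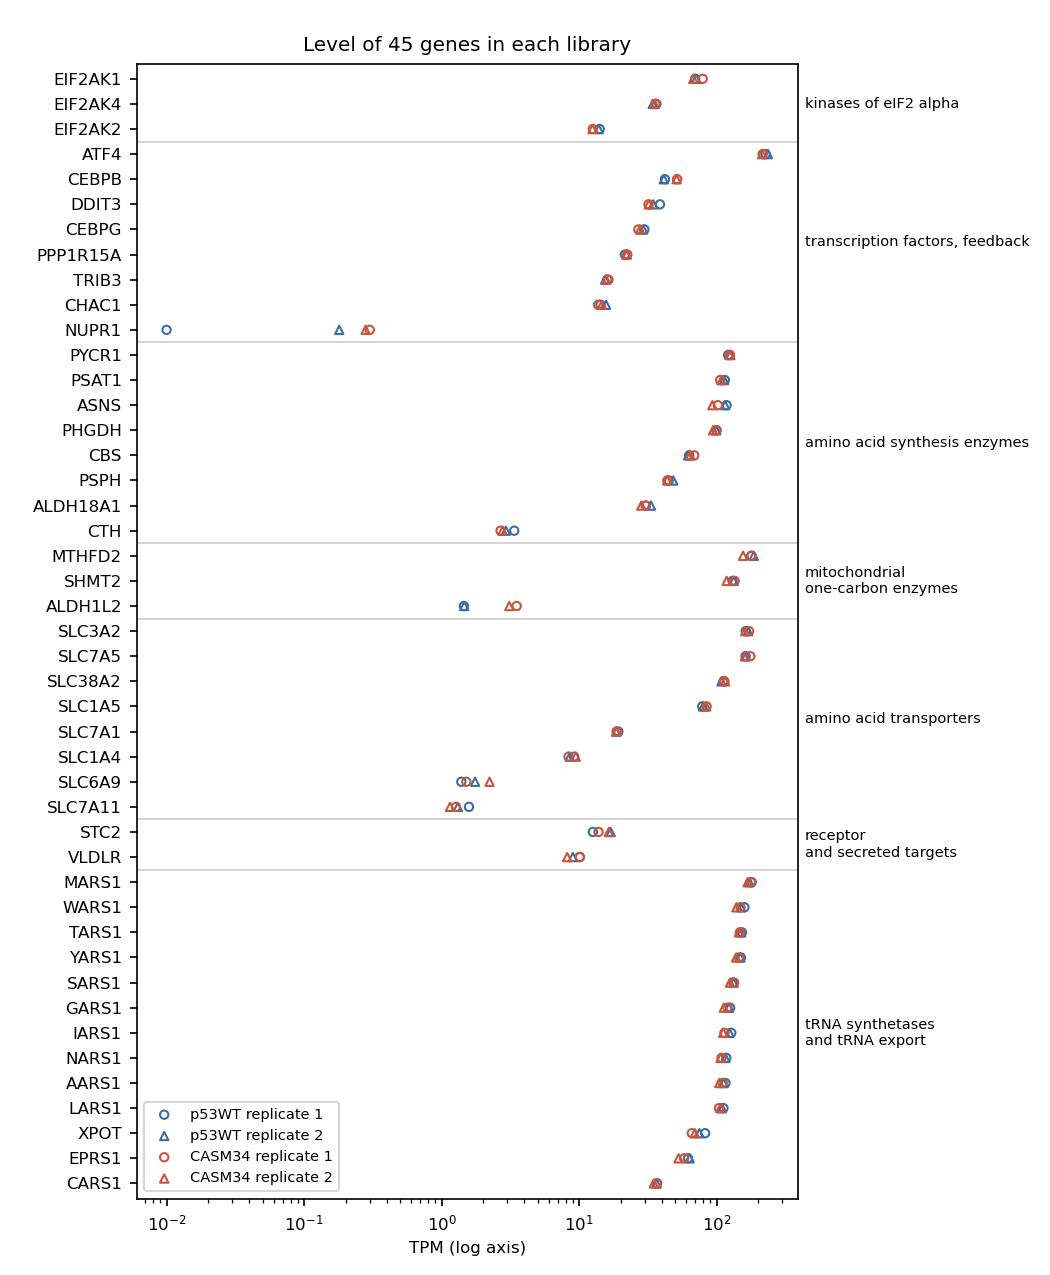
Level of each of the 45 genes in each library in TPM (log axis), grouped by role; circles and triangles are replicates 1 and 2, and the 2 colours are the groups. ATF4 stands at 214 to 236 TPM, most synthetases stand above 100 TPM, and the groups' symbols lie close together for nearly all genes except ALDH1L2 and NUPR1.

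ATF4 and C/EBP dimers are known to bind a composite element, the C/EBP-ATF response element. The letters TGATGNAA, a common form of it, were searched on both strands of RefSeq promoter windows (GRCh38.p14), which run from 250 bases before to 50 after a gene's start. Of the 45 members, 36 were in that table, and 14 of these (38.9%) held the letters in at least 1 window, beside 4.46% of all 27305 genes in the table. Per window of 300 bases the shares were 25.5% of 55 and 3.62% of 35116. The genes were put in the set partly as known targets of ATF4, so this share is no independent result, and a match is not a measured binding site. The stretches of 7 of the 10 synthetases in the table are shown with those of ASNS, CEBPG and CHAC1, as examples from the synthetase, synthesis and feedback genes described later. Each is written so that the motif reads TGATGNAA, with the motif in capitals. The strand of the printed letters is plus for CEBPG, AARS1, CARS1 and IARS1 and minus for the others.
ASNS, chr7:97872459-97872486: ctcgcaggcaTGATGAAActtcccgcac
CEBPG, chr19:33374061-33374088: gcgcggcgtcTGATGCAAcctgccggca
CHAC1, chr15:40953252-40953279: ctggcaggagTGATGCAAcggcagggga
AARS1, chr16:70289676-70289703: ctaacttggcTGATGCAActgcgagaaa
CARS1, chr11:3057408-3057435: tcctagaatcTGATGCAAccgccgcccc
GARS1, chr7:30594835-30594862: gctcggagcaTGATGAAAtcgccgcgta
IARS1, chr9:92293693-92293720: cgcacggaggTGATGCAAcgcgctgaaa
MARS1, chr12:57488054-57488081: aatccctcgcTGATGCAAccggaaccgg
NARS1, chr18:57621805-57621832: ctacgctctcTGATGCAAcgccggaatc
TARS1, chr5:33440957-33440984: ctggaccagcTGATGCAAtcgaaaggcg
Of the 14 matches, 10 read TGATGCAA, 3 read TGATGAAA and 1 read TGATGTAA. In ASNS the motif begins at -68, counting the start base as 0. The other 4 matches were in SLC3A2, SLC7A1, SLC1A5 and SLC1A4, all amino acid transporter genes. The 14 genes with a match had a median log2 fold change of -0.09, ranging from -0.20 to 0.09, and 12 were below 0. The 22 tested genes without a match had a median of -0.04, ranging from -0.35 to 0.31, and 13 were below 0. The ranges overlap, and the difference was not tested. Of the 14 genes with a match 7 were synthetases, and the 12 synthetases of the set had a median of -0.09. Match and role in the set can therefore not be told apart here.

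Of the 3 kinases of eIF2 alpha in the set, none passed. EIF2AK4, the sensor of uncharged tRNA known as GCN2, measured 143 and 138 CPM in p53WT and 141 and 139 CPM in CASM34. Its groups overlapped, with a log2 fold change of -0.00056 ± 0.05 (SE, n = 2 against 2). EIF2AK1, the heme-regulated kinase, measured 136 and 138 CPM in p53WT and 137 and 136 CPM in CASM34, a log2 fold change of -0.0087 ± 0.04 with overlapping groups. EIF2AK2, the kinase that double-stranded RNA activates, measured 76.7 and 78.9 CPM against 73.5 and 71.4 CPM. Its groups did not overlap, and its log2 fold change of -0.10 ± 0.05 did not pass (edgeR adjusted p = 0.323).

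ATF4 mRNA (ENSG00000128272.18, chr22:39519695-39522685, plus strand) measured 210 and 223 CPM in p53WT and 203 and 202 CPM in CASM34. Both CASM34 libraries were below both p53WT libraries. The log2 fold change was -0.10 ± 0.05 (95% interval -0.20 to 0.0018, n = 2 against 2) and did not pass (edgeR adjusted p = 0.301). The group means were 217 ± 9.15 and 202 ± 1.19 CPM (SD, n = 2 each). Dropping p53WT replicate 2 brought the log2 fold change to -0.05 (edgeR adjusted p = 0.752), and the offset for GC and length brought it to -0.16 (edgeR adjusted p = 0.112). Over all alternatives run the adjusted p ranged from 0.0150 to 0.752.

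DDIT3 encodes CHOP, a bZIP factor that ATF4 induces and that is linked to cell death under prolonged stress. It measured 19.2 and 17.6 CPM in p53WT and 16.1 and 16.2 CPM in CASM34. The groups did not overlap, but the log2 fold change of -0.19 ± 0.09 did not pass (edgeR adjusted p = 0.335). DDIT3 (chr12:57516588-57521737, minus strand) shares 355 of its 1307 exon bases with MARS1 on the opposite strand, which averaged 298 CPM. The strand setting of the authors' counting is not given in the sources used here, so it is not known whether reads over the shared bases were separated by strand.

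Among the other factors and feedback genes, CEBPG, a C/EBP partner of ATF4, had a log2 fold change of -0.10 and groups that did not overlap. TRIB3, a pseudokinase that ATF4 and CHOP induce and that dampens ATF4, stood at 0.0080. PPP1R15A encodes GADD34, which guides the phosphatase that reverses eIF2 phosphorylation, and it stood at 0.03. CHAC1, a glutathione-degrading enzyme and a sensitive readout of ATF4 and CHOP, stood at -0.10 on 13.5 to 16.2 CPM. TRIB3, PPP1R15A and CHAC1 each had overlapping groups. With the offset for GC and length they stood at -0.17, -0.08 and -0.29, so TRIB3 and PPP1R15A turned sign. CHAC1 stood at 0.014 without p53WT replicate 2.

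CEBPB was the member that rose. It encodes the bZIP factor C/EBP beta, which dimerises with ATF4 and is itself induced in stress and inflammation. CEBPB (ENSG00000172216.6, chr20:50190734-50192689, plus strand) measured 53.7 and 53.8 CPM in p53WT and 67.1 and 66.3 CPM in CASM34. Both CASM34 libraries were above both p53WT libraries, by far more than the difference within either group. The means were 53.8 ± 0.0882 and 66.7 ± 0.604 CPM (SD, n = 2 each). The log2 fold change was 0.31 ± 0.05 (SE; 95% interval 0.20 to 0.42; edgeR adjusted p = 0.0109).

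CEBPB was also the member richest in G and C, with 66.2% in its transcripts, and fold changes in these libraries moved with GC content. The 515 genes tested with at least 65% GC had a median log2 fold change of 0.26, and 18.6% of them rose. With an offset for transcript GC content and length, the log2 fold change of CEBPB was 0.04 (edgeR adjusted p = 0.792). Without p53WT replicate 1 it was 0.30 (edgeR adjusted p = 0.0690). Over all alternatives run, its adjusted p ranged from 2.5e-05 to 0.823.

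**Figure D3:**
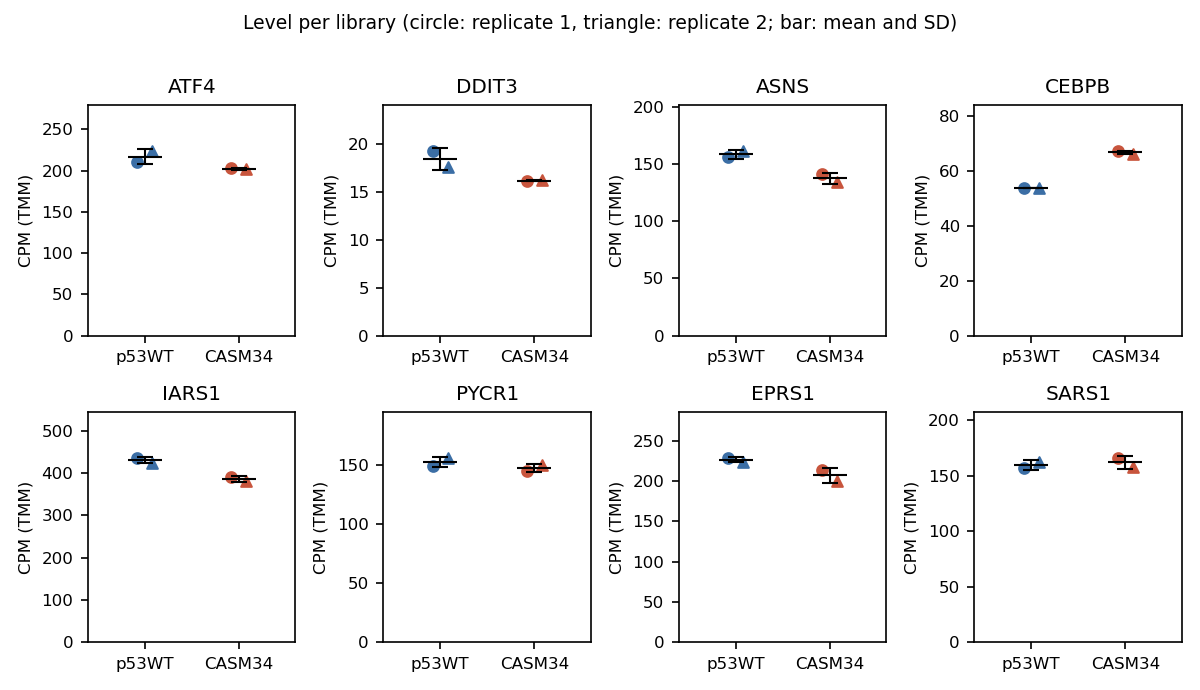
CPM in each library (vertical axes from 0) for 8 members, with the mean and SD of each group as bars (n = 2 each). CEBPB is higher in both CASM34 libraries, ATF4, DDIT3, ASNS, IARS1 and EPRS1 are lower in both, and PYCR1 and SARS1 overlap.

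**Figure D4:**
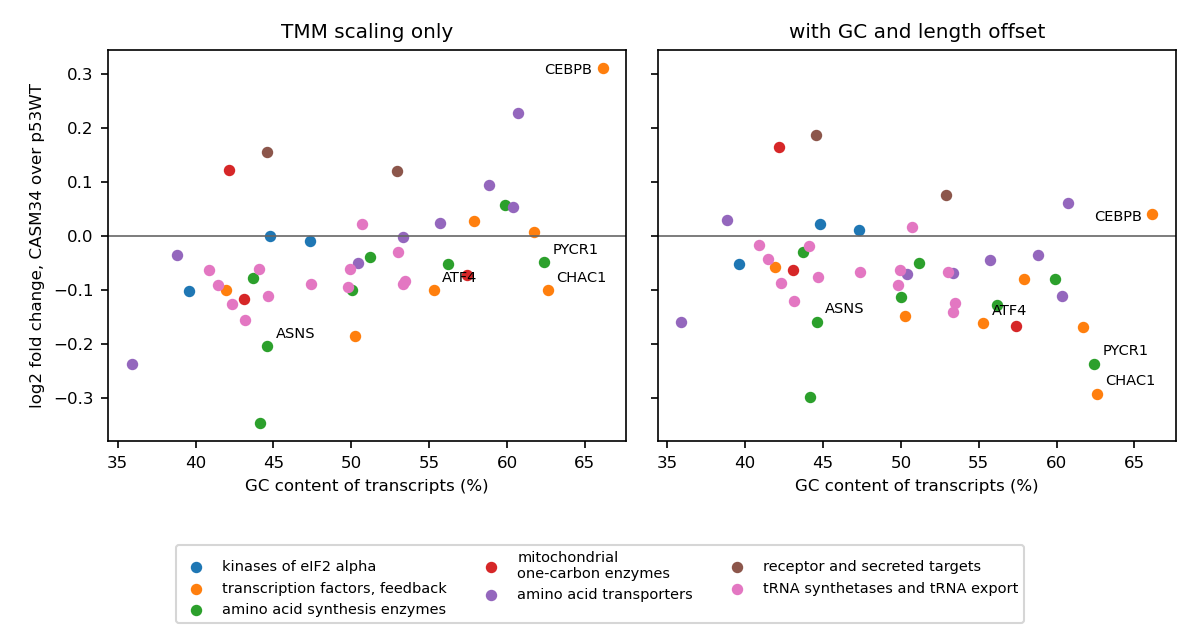
Log2 fold change, CASM34 over p53WT (vertical axis), of the 44 members against GC content of their transcripts in percent (horizontal axis), with TMM scaling only (left) and with the GC and length offset (right). CEBPB moves from 0.31 to 0.04, while PYCR1 and CHAC1 move from -0.05 and -0.10 to -0.24 and -0.29.

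Of the 8 genes for amino acid synthesis, ASNS fell and 7 did not pass. ASNS makes asparagine from aspartate and glutamine and is a widely used readout of ATF4. ASNS (ENSG00000070669.17, chr7:97852118-97872542, minus strand) measured 156 and 161 CPM in p53WT and 141 and 134 CPM in CASM34. Both CASM34 libraries were below both p53WT libraries. The means were 159 ± 3.75 and 138 ± 4.93 CPM (SD, n = 2 each). The log2 fold change was -0.20 ± 0.05 (SE; 95% interval -0.31 to -0.10; edgeR adjusted p = 0.0473).

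That call lay close to the threshold. It was kept without CASM34 replicate 1 (log2 fold change -0.24, edgeR adjusted p = 0.0110). Dropping p53WT replicate 1 gave -0.23 (edgeR adjusted p = 0.117) and dropping p53WT replicate 2 gave -0.18 (edgeR adjusted p = 0.212), so both ended the call. Dropping CASM34 replicate 2 also ended it (-0.17, edgeR adjusted p = 0.0796). Scaling by library totals gave -0.20 (edgeR adjusted p = 0.0521), and the offset for GC and length gave -0.16 (edgeR adjusted p = 0.145). ASNS transcripts hold 44.6% GC, and the 3511 genes tested at 40 to 45% GC had a median of -0.06. The ASNS values were below 0 under every alternative run, and the adjusted p ranged from 0.00136 to 0.345.

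ASNS also shares 1985 of its 4455 exon bases with a gene model on the same strand, ENSG00000284707. Such reads are divided between the models by estimation, and ASNS counts were not whole in any of the 4 libraries. The overlapping model measured 16.1 and 15.3 CPM in p53WT and 19.3 and 17.9 CPM in CASM34, so it was higher in both CASM34 libraries (log2 fold change 0.25 ± 0.09, edgeR adjusted p = 0.192). Summed, the models measured 172 and 177 CPM in p53WT and 160 and 152 CPM in CASM34, without overlap. The log2 ratio of the summed means was -0.16, and it was not tested.

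The serine pathway genes PHGDH, PSAT1 and PSPH, which turn a glycolytic intermediate into serine, had log2 fold changes of -0.05, -0.08 and -0.04. PSAT1 was lower in both CASM34 libraries, at 167 and 171 CPM against 178 and 179 CPM, while PHGDH and PSPH overlapped in CPM. As TPM, PSPH did not overlap, at 44.72 and 48.25 in p53WT and 43.73 and 43.64 in CASM34. The proline pathway gene ALDH18A1 stood at -0.10. PYCR1, which completes proline synthesis, measured 150 and 156 CPM in p53WT and 145 and 150 CPM in CASM34, with overlapping groups and a log2 fold change of -0.05 ± 0.05 (edgeR adjusted p = 0.642). With the GC and length offset PYCR1 was lower by -0.24 and passed (edgeR adjusted p = 0.0446; range over all alternatives 4.5e-05 to 0.932). Its transcripts hold 62.4% GC.

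The transsulfuration genes CBS and CTH make cysteine from homocysteine. CBS measured 97.3 and 94.1 CPM in p53WT and 102 and 97.1 CPM in CASM34, overlapping. Its log2 fold change was 0.06, and the offset for GC and length brought it to -0.08. As TPM, CBS did not overlap, at 63.06 and 61.94 in p53WT and 68.62 and 64.07 in CASM34. CTH measured 4.97 and 4.41 CPM against 3.59 and 3.78 CPM. CTH had the lowest fitted value of the set, -0.35 ± 0.18, without overlap and without passing (edgeR adjusted p = 0.353; 95% interval -0.74 to 0.04).

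Of the 3 enzymes that carry one-carbon units on folate in mitochondria, none passed. MTHFD2 measured 247 and 252 CPM in p53WT and 234 and 227 CPM in CASM34, without overlap (log2 fold change -0.12 ± 0.05, edgeR adjusted p = 0.202). As TPM, MTHFD2 overlapped, at 178 and 186 in p53WT and 179 and 155 in CASM34. SHMT2, which splits serine into glycine and a one-carbon unit, stood at -0.07 with overlapping groups. ALDH1L2, which releases one-carbon units as carbon dioxide, measured 7.41 and 5.57 CPM in p53WT and 6.82 and 7.29 CPM in CASM34, a log2 fold change of 0.12 ± 0.16. On the count scale its groups overlapped.

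ALDH1L2 looked different as TPM. It was deposited at 1.45 and 1.46 TPM in p53WT and 3.51 and 3.10 TPM in CASM34, a log2 ratio of means of 1.18. TPM divides by an effective length, an average over isoforms that the authors' RSEM run weighted anew in each library. For ALDH1L2 that length was 6127 and 4490 bases in p53WT but 2290 and 2780 bases in CASM34. The effective lengths thus did not overlap between the groups, while the counts did, on 161 and 144 counts in p53WT and 182 and 133 in CASM34. Effective lengths were without overlap in 15 of the 44 members compared. That share was not counted over all genes, so it sets ALDH1L2 apart only by the size of the gap. With limma on log2(TPM + 1) the difference was 0.81 and did not pass.

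Count and TPM scales were close for most other members, with a median gap of 0.018 on the log2 scale. The gap passed 0.1 for CTH, XPOT, VLDLR and ALDH1L2. The sign differed between the scales for 7 of 44 members: EIF2AK1, EIF2AK4, PYCR1, SLC1A4, SLC38A2, VLDLR and SARS1. None of these 7 passed on the count scale.

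**Figure D5:**
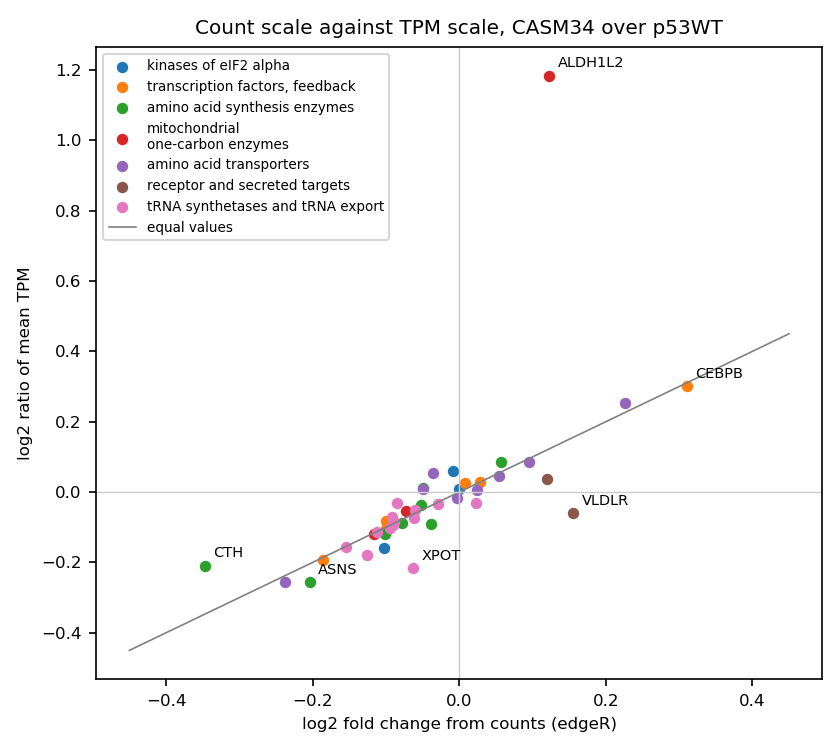
Log2 ratio of mean TPM (vertical axis) against the log2 fold change from counts (horizontal axis), CASM34 over p53WT, for the 44 members; the line marks equal values. ALDH1L2 lies far above the line, at 1.18 against 0.12, and XPOT and VLDLR lie below it.

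None of the 8 amino acid transporters passed. On the count scale 4 were above 0 and 4 below, with the offset for GC and length 2 were above and 6 below, and with limma on TPM or the effective length offset 6 were above and 2 below. SLC7A5 and SLC3A2 form the exchanger for large neutral amino acids known as LAT1 and 4F2hc. SLC7A5 measured 574 and 586 CPM in p53WT and 631 and 573 CPM in CASM34, and SLC3A2 measured 225 and 240 CPM against 243 and 229 CPM. Both overlapped, with log2 fold changes of 0.05 and 0.02 that stood at -0.11 and -0.05 with the offset for GC and length. SLC1A5, a glutamine transporter, measured 165 and 169 CPM in p53WT and 180 and 177 CPM in CASM34. It was the transporter higher in both CASM34 libraries, but its log2 fold change of 0.09 ± 0.04 did not pass (edgeR adjusted p = 0.301) and stood at -0.03 with the GC and length offset.

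SLC7A11, the cystine importer that supplies glutathione synthesis, measured 12.3 and 10.4 CPM in p53WT and 10.0 and 9.10 CPM in CASM34. Its groups did not overlap, and the log2 fold change of -0.24 ± 0.13 did not pass (edgeR adjusted p = 0.369). The glycine transporter gene SLC6A9 measured 3.36 and 3.87 CPM in p53WT and 3.71 and 4.88 CPM in CASM34. SLC6A9 had the highest fitted value of the transporters, 0.23 ± 0.20, with overlapping groups (edgeR adjusted p = 0.616). The cationic amino acid transporter gene SLC7A1 measured 111 and 111 CPM in p53WT and 112 and 110 CPM in CASM34. The neutral amino acid transporter genes SLC1A4 and SLC38A2 overlapped in CPM, with log2 fold changes of -0.05 and -0.04. As TPM, SLC38A2 did not overlap and was higher in CASM34, at 112.13 and 108.24 in p53WT and 113.72 and 115.03 in CASM34.

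The lipoprotein receptor gene VLDLR and the secreted glycoprotein gene STC2, both reported targets of ATF4, did not pass and overlapped between the groups. VLDLR measured 23.6 and 21.1 CPM in p53WT and 26.5 and 23.0 CPM in CASM34, a log2 fold change of 0.16 ± 0.09, against a log2 ratio of -0.06 as TPM. STC2 measured 28.9 and 30.5 CPM in p53WT and 34.0 and 30.2 CPM in CASM34, a log2 fold change of 0.12 ± 0.08. Dropping CASM34 replicate 1 brought VLDLR to 0.04 and STC2 to 0.03.

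Most synthetases lay slightly below 0, and none passed. These enzymes attach each amino acid to its tRNA, and the set holds 12 cytosolic ones. The fitted value was below 0 for 11 of them, the median being -0.09 and the extremes -0.16 and 0.02. In 10 of the 12, both CASM34 libraries were below both p53WT libraries in CPM, where 23.4% of all genes tested were. All 12 had a 95% interval within 1.2-fold in either direction. Their TPM summed to 1468 and 1438 in p53WT and 1403 and 1344 in CASM34, without overlap. A count over a list is a description here, since the genes share their libraries and were not tested as a list.

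IARS1, the isoleucyl-tRNA synthetase, had the lowest value of the 12. It measured 435 and 425 CPM in p53WT and 391 and 381 CPM in CASM34. The groups did not overlap, and the log2 fold change of -0.16 ± 0.05 (95% interval -0.25 to -0.06) did not pass (edgeR adjusted p = 0.0995). With DESeq2 IARS1 passed (-0.16, adjusted p = 0.0220; range over all alternatives 0.0154 to 0.356).

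EPRS1, which charges both glutamate and proline tRNAs, measured 228 and 224 CPM in p53WT and 214 and 200 CPM in CASM34. NARS1, for asparagine, measured 232 and 233 CPM against 214 and 217 CPM. Both were without overlap, with log2 fold changes of -0.13 ± 0.05 and -0.11 ± 0.04 (edgeR adjusted p = 0.195 and 0.210). WARS1 for tryptophan, LARS1 for leucine, GARS1 for glycine, AARS1 for alanine and MARS1 for methionine lay between -0.09 and -0.08, all without overlap in CPM. As TPM, MARS1 overlapped, at 180 and 173 in p53WT and 177 and 168 in CASM34.

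TARS1 for threonine and YARS1 for tyrosine both stood at -0.06, again without overlap. CARS1, for cysteine, measured 66.7 and 66.8 CPM in p53WT and 67.1 and 63.5 CPM in CASM34, with overlapping groups and a log2 fold change of -0.03. SARS1, for serine, measured 157 and 163 CPM in p53WT and 166 and 158 CPM in CASM34, the one synthetase above 0, at 0.02 ± 0.05. XPOT, the exportin that carries tRNAs out of the nucleus, measured 275 and 274 CPM against 263 and 262 CPM. The XPOT groups did not overlap, and the log2 fold change was -0.06 ± 0.04.

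The synthetase transcripts hold 41.4 to 53.4% GC. All genes tested at 40 to 45%, 45 to 50% and 50 to 55% GC had median log2 fold changes of -0.06, -0.04 and 0.0033. The count of synthetases without overlap was not repeated with an offset. With the GC and length offset 11 of 12 remained below 0, with a median of -0.07 beside -0.02 for all genes. Leaving out CASM34 replicate 2, the library with the lowest total, brought the median to -0.05, with 10 of 12 below 0. Without any other library it lay between -0.11 and -0.09.

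Other genes of the pathway were read from 6 further lists of 92 genes, of which 87 were tested. GDF15 rose, 0 fell and 86 did not pass; 32 were above 0 and 55 below. GDF15, a secreted stress cytokine that both ATF4 and p53 are known to induce, measured 19.4 and 21.6 CPM in p53WT and 28.2 and 32.0 CPM in CASM34. Both CASM34 libraries were above both p53WT libraries, with a log2 fold change of 0.55 ± 0.09 (edgeR adjusted p = 0.00976). Dropping p53WT replicate 1 ended the call (0.47, edgeR adjusted p = 0.0988), as did the offset for GC and length (0.41, edgeR adjusted p = 0.0619). The adjusted p ranged from 1.32e-08 to 0.318 over all alternatives.

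Of 15 tested further bZIP factors and ATF4 targets, 9 were above 0, and 8 were higher in both CASM34 libraries, beside 24.5% of all genes tested. Their GC content had a median of 55.1%, and with the GC and length offset their median moved from 0.09 to 0.02. In the other lists 0 passed in either direction. Below 0 were 9 of 12 other cytosolic synthetases and scaffold genes, 12 of 17 mitochondrial synthetases and 10 of 15 genes of eIF2, its exchange factor eIF2B and their regulators. So were 9 of 16 further enzymes of amino acid and one-carbon metabolism and 9 of 12 further transporters.

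In 4 of these lists the gene with the lowest p is given. Each was lower in both CASM34 libraries, where 23.4% of all genes tested were. They were picked by p in these same data, so that separation is no independent result. FARSB, a subunit of the phenylalanyl-tRNA synthetase, measured 108 and 107 CPM in p53WT and 96.2 and 93.2 CPM in CASM34 (log2 fold change -0.18 ± 0.05, edgeR adjusted p = 0.0666). EIF2S1, which encodes eIF2 alpha, stood at -0.14 (edgeR adjusted p = 0.133), and OAT, the ornithine aminotransferase, at -0.17 (edgeR adjusted p = 0.0995). SLC7A7, a cationic amino acid transporter at 0.164 to 0.690 CPM, stood at -1.25 ± 0.58 (edgeR adjusted p = 0.291). FGF21, SLC7A3, SLC7A8, SLC1A2 and SLC38A5 were too low to test.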

How the data were processed

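RNA was measured in 4 libraries, 2 per group. The submitters' processing notes name RSEM, STAR, Trim Galore and the build GRCh38. Versions, the annotation release and strandedness are not given in the sources consulted. Per the file headers, the deposited tables hold the authors' RSEM expected counts (estimated, so not always whole), effective lengths and TPM for 61852 genes. The members and gene lists were chosen with earlier results of these data known.

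Expected counts were rounded and tested with edgeR 4.0.16 in R 4.3.3 (quasi-likelihood F test, group as the single term, TMM scaling, filterByExpr at its minimum count, 10), with Benjamini-Hochberg adjustment over 15965 genes tested. The SE is the absolute log2 fold change over the square root of F. The common dispersion was 0.00193. CPM uses the TMM factors, 0.993 to 1.01. Of the 61852 gene IDs, 61803 had a name. Coordinates, exon overlaps and GC content come from GENCODE 29 on GRCh38, 1-based; promoter windows come from RefSeq, GRCh38.p14. Of the members, 20 share exon bases with another gene, 12 of them with one at 1 CPM or more.

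Alternatives were other scalings (median of ratios, upper quartile, library totals), no filter on low counts, a mean of at least 1 CPM, DESeq2 1.42.0, and limma 3.58.1 (voom, and log2(TPM + 1) or log2(TPM + 0.1)). Further ones were an effective length offset, a GC and length offset (natural splines with 5 degrees of freedom on each, per library), a replicate block, leaving out each library, and an adjusted p under 0.01. The script was tested on simulated data.

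Values in every library are given for ATF4, DDIT3, ASNS, members that passed, and those with the extreme fold change or level of their role list; other members were added where a result needed them. Of each further list, up to 4 genes that passed are named, otherwise the one with the lowest p, except 1 that is not reported here.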

Additional observations from a re-analysis of the deposited data

How the results depend on the processing

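The median log2 fold change of the members was -0.06 and lay below that of all genes under every alternative; it was -0.04 with the effective length offset and -0.07 to -0.05 when each library was left out in turn. Members passing, 2 in all, numbered 3 with DESeq2 (2 lower, IARS1 added; adjusted p was not given for 10 members), 1 with library totals (0 lower) and 1 with the GC and length offset (0 higher, PYCR1 lower). They numbered 0 with the effective length offset, with limma on TPM at either pseudocount and at an adjusted p under 0.01. At an unadjusted p under 0.05, 7 members passed with the effective length offset, beside 1882 of 15965 genes. Limma on log2(TPM + 1) and log2(TPM + 0.1) gave 8 and 7 members, beside 1820 and 1811 of 15965 genes. EdgeR as reported gave 6 members, beside 2734 of 15965 genes. Leaving out 1 library gave 0 to 2 members (0 to 1 higher, 0 to 1 lower), 0 of them without p53WT replicate 1 (5 at an unadjusted p under 0.05).

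Over all genes, 312 of 15965 passed (257 higher, 55 lower), or 1.95%. With no filter the count was 777 of 26177 (542 and 235), or 2.97%. DESeq2 gave 203 (144 higher) of the 6370 genes with an adjusted p, or 3.19%. Of 15965 genes, 58 passed with the GC and length offset (30 and 28) and 5 with the effective length offset (5 and 0). At an adjusted p under 0.01 the reported fit gave 57 (54 and 3). Limma on TPM gave 0 (0 and 0), with 1820 and 1811 of 15965 at an unadjusted p under 0.05. Library totals gave 27 lower. Leaving out 1 library gave 109 to 919 (95 to 650 higher, 14 to 269 lower).

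The replicate numbers are shared between the groups, but the labels name no shared batch or day, so the numbers were not treated as pairs. Deviations of same-numbered libraries correlated at 0.0335 over all genes tested. That value weighs genes with few counts like the others, so it cannot exclude pairing. With a replicate block 1159 genes passed, 7.26% of those tested (798 higher, 361 lower), and 3 of 44 members (2 lower, ASNS and IARS1). With the replicate block and the GC and length offset 544 genes passed, 3.41% of those tested (338 lower, 2.12%). Of the 44 members, 5 passed in that fit (0 higher, 5 lower: ATF4, ASNS, PYCR1, SHMT2 and AARS1).

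Over all 44 tested members, 18 changed sign under at least 1 alternative, 9 of them with the GC and length offset, and none of the 18 passed in the reported fit. Of these, TRIB3, PPP1R15A, CHAC1, PHGDH, SLC7A5, SLC7A1, SLC1A5, SLC1A4 and SLC38A2 are not among the 27 genes that the rule names and that could be tested. The other 9 follow. EIF2AK4 was at 0.0035 with library totals, 0.0022 at a mean CPM of at least 1, 0.00020 with voom, 0.010 with limma on TPM at either pseudocount, 0.020 with the effective length offset, 0.023 with the GC and length offset and 0.022 with the block added, and -0.026 to 0.021 leaving out libraries. EIF2AK1 was at 0.054 and 0.055 with limma on TPM, 0.070 with the effective length offset, 0.012 with the GC and length offset, with or without the block, and -0.024 to 0.0030 leaving out libraries. PYCR1, VLDLR and SARS1 were at 0.013, -0.058 and -0.032 with limma on log2(TPM + 1), at 0.013, -0.064 and -0.032 on log2(TPM + 0.1), and at 0.022, -0.044 and -0.022 with the effective length offset. CBS and SLC3A2 were at -0.081 and -0.045 with the GC and length offset and at -0.082 and -0.044 with the block added. Leaving out libraries gave -0.026 to 0.073 for SLC3A2, -0.014 to 0.055 for SARS1, -0.074 to 0.33 for ALDH1L2 and -0.074 to 0.0070 for CARS1. The causes were not tested. With 2 libraries per group, leaving one out assumes that the lone library varies like the other group.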
